A study of Mus musculus with 10 samples.

Results

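Ribosome biogenesis factors are the proteins that make, modify, cut and fold ribosomal RNA in the nucleolus and load it with ribosomal proteins, and 48 of their genes were followed here in natural killer (NK) cells and type 1 innate lymphoid cells (ILC1). They were chosen by name, as subunits of RNA polymerase I and nucleolar assembly factors other than the ribosomal proteins themselves, and all 48 were found among the 24981 genes of each of the 2 expression tables. The choice was made with earlier results of these data known. The 10 libraries came from BALB/c mice dosed orally with tofacitinib, an inhibitor of Janus kinases, at 30 mg/kg 2 times per day for 7 days, or with vehicle. Splenic NK cells were sorted as NKp46+ CD3- and liver ILC1 as CD3- NKp46+ DX5dim TRAIL+, each with 3 vehicle and 2 tofacitinib libraries, and cells of several mice were pooled. The strain was the same in all groups, the labels name no genetic change, and the age of the mice is not given in the sources used here.

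Ribosome production starts with RNA polymerase I, which copies the ribosomal DNA into 1 long precursor. Small nucleolar ribonucleoproteins (snoRNPs) then guide its chemical modification, box C/D particles for methylation and box H/ACA particles for pseudouridine, while large assemblies of further factors build the small and the large subunit. In lymphocytes this machinery is known to grow with cytokine and antigen signals that drive cell growth, and its genes are among the well known targets of Myc. Janus kinases pass the signals of interleukin-2 and interleukin-15, among many other cytokines, to STAT transcription factors.

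Expression was given as RPKM, read numbers divided by exon length and by library size, so that levels can be compared between genes. Libraries had 29199973 to 79258362 alignments, and no ribosome biogenesis factor was at 0 in any of them. Markers shared by NK cells and ILC1 (Ncr1, Nkg7, Klrd1, Il2rb, Tbx21 and Klrk1) summed to 3565 to 3944 RPKM in NK vehicle libraries, to 3102 RPKM in both NK tofacitinib libraries and to 1711 to 3721 RPKM in ILC1. NK markers such as Eomes summed to 907 to 1118 RPKM in NK cells and 14.2 to 43.1 RPKM in ILC1, and ILC1 markers such as Tnfsf10, which encodes TRAIL, to 32.4 to 72.3 and 256 to 566 RPKM. ILC1 libraries were sequenced in 3 runs. Vehicle 2 and tofacitinib 1 shared a run, vehicle 3 and tofacitinib 2 shared another, and vehicle 1 stood alone in the third. The run of vehicle 2 and tofacitinib 1 had low RPKM values throughout, with a median over all tested genes of 7.58 and 8.94 against 11.9 to 13.2 in the other ILC1 libraries. ILC1 tofacitinib 1 also had more RNA of neutrophil and erythroid markers. Its 10 neutrophil markers summed to 158 RPKM against 3.11 to 17.0 in the other ILC1 libraries, and its 9 erythroid markers to 389 RPKM against 1.48 to 36.01. B cell markers were higher in both treated ILC1 libraries, with sums of 16.2 RPKM or more against 8.75 to 13.3 RPKM with vehicle. In NK cells B cell markers summed to 69.1, 103 and 77.4 RPKM with vehicle and 85.5 and 111 RPKM with tofacitinib, with overlap between groups. The part of B cell RNA in the results was not tested.

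In NK cells, 16 of the 48 ribosome biogenesis factors were lower after tofacitinib and 0 were higher at an adjusted p under 0.05 (limma, Benjamini-Hochberg over 9472 genes). Of all tested genes, 3.02% were called lower and 1.79% higher. The strongest falls were in Bysl, Tsr1 and Rrp12, all of small subunit assembly, which dropped to 41.1%, 41.8% and 42.02% of their vehicle means. Over the 48 genes, 45 had a negative log2 change (52.4% of all tested genes) and 3 a positive one, with a median of -0.30 and a range of -1.24 to 0.25, whereas the median over all tested genes was -0.012. At an unadjusted p under 0.05, 27 were lower and 1 higher, and 13.1% of all tested genes were lower. In bulk RNA, fewer cells of a type and less RNA per cell cannot be told apart.

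All 48 genes passed the filter on low values in NK cells, 46 of them in both groups and Rrp12 and Rrp1b through the vehicle group alone. Both tofacitinib libraries lay below all 3 vehicle libraries for 35 of the 48 genes, against 23.9% of all tested genes, and above them for 1 gene, Polr1c, against 20.2%. Of the 48 genes, 41 were lower in both pairs of libraries that share a replicate letter, against 32.6%. The median level of the 48 genes was 12.2, 14.05 and 12.04 RPKM in the vehicle libraries and 10.3 and 10.97 RPKM in the tofacitinib libraries. The 2 treated libraries were therefore the lowest, while the median of all tested genes stayed between 12.5 and 12.9 RPKM in the 5 NK libraries. The sum of the markers shared by NK cells and ILC1 was also lower in both tofacitinib libraries and that of ILC1 markers higher (59.8 and 72.3 against 32.4 to 38.3 RPKM). Most of the latter difference was in Il7r, the interleukin-7 receptor, at 43.5 and 53.1 against 19.1 to 22.3 RPKM, and without it the ILC1 markers summed to 16.3 and 19.2 against 13.3 to 16.1 RPKM. The part of these markers in the result was not tested. Vehicle 1 had the highest erythroid sum of the NK libraries, 328 against 53.0 to 111 RPKM, and without it 14 genes were called lower (1.32% of all tested genes). The number of calls depended on each tofacitinib library: it was 3 without tofacitinib 1 and 4 without tofacitinib 2, where 0.296% and 0.728% of all tested genes were called lower. It was 17 without vehicle 2 and 12 without vehicle 3, with 4.58% and 3.66% of all tested genes. Nhp2, Bysl and Tsr1 were called whichever library was left out. The fit with the letter as a block called 19 lower and 0 higher (3.85% and 3.02% of all tested genes), and after median scaling 16 were lower (3.25%). Vehicle 1 stands alone in its letter, so the blocked fit rests on the 2 pairs that share a letter, with 1 residual degree of freedom per gene. Its p-values use only the spread shared across genes, not a gene's own. Deviations from the group means did not pair the libraries by letter (r = -0.14 and -0.16).

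**Figure D1:**
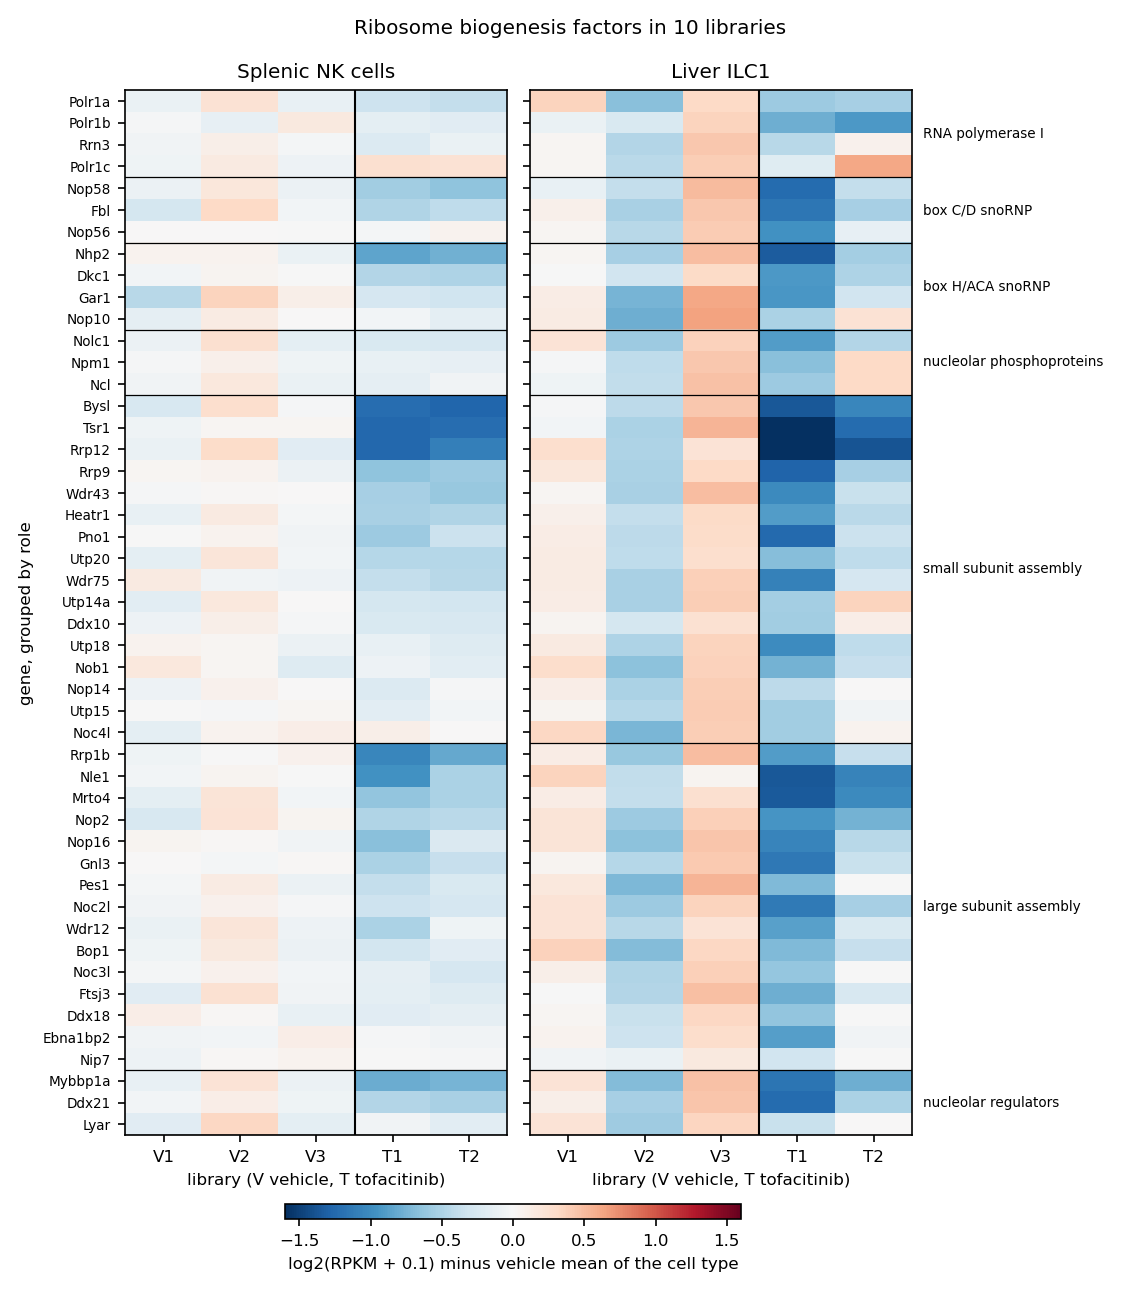
Each row is a gene and each column a library, with V for vehicle and T for tofacitinib, and colour gives log2(RPKM + 0.1) minus the vehicle mean of the same cell type, blue for lower and red for higher. In NK cells the darkest blue rows are Bysl, Tsr1 and Rrp12 in both treated libraries, whereas in ILC1 the vehicle 2 column, of the run with low RPKM values, is blue as well.

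The promoters of the genes that fell were examined for short sequence motifs, because these genes moved together. RefSeq promoters on GRCm38.p6, from 250 bases before to 50 bases after the start, were found for 44 of the 48 genes. There was no entry for Npm1, Fbl, Rrp12 and Bop1. The E-box CACGTG, the motif bound by Myc and related factors, was in 10 of the 44 promoters (22.7%), against 8.91% of protein-coding genes and 18.1% of 94 other ribosome biogenesis factors. It was in 5 of the 15 promoters of genes called lower in NK cells, those of Tsr1, Mybbp1a, Nle1, Pno1 and Wdr43, and in all 5 it lay downstream of the start. The other promoters with an E-box were those of Nop2, Pes1, Rrn3, Utp18 and Utp20. Within the 50 bases after the start the motif was found in 7 of the 44 promoters (15.9%) and in 1.32% of protein-coding genes. This narrower window was not planned and was taken after the positions of the matches were known. The contrast is thus a description of these same promoters, and it was not computed for the other ribosome biogenesis factors. The STAT motif TTCNNNGAA was in 6 of the 44 promoters (13.6%), in 8.92% of protein-coding genes and in 9.57% of the other ribosome biogenesis factors, and among the genes called lower in NK cells only in that of Nop58. Both motifs read the same on both strands, and no match of one overlapped a match of the other. A match of letters is a description and not a binding site. The promoters of Tsr1 and Mybbp1a are shown whole, since both genes had large falls, and the E-boxes of the other 3 genes with the bases around them. All run 5′ to 3′ on the strand of the gene, with the E-box in capitals.
Tsr1, chr11:74897830-74898129, plus strand: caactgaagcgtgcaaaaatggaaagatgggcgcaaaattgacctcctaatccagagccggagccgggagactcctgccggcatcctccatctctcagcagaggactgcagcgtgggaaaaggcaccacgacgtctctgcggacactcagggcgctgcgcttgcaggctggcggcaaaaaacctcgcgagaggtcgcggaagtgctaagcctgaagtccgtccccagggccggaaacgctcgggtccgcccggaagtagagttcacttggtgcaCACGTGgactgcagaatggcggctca
Mybbp1a, chr11:72441077-72441376, plus strand: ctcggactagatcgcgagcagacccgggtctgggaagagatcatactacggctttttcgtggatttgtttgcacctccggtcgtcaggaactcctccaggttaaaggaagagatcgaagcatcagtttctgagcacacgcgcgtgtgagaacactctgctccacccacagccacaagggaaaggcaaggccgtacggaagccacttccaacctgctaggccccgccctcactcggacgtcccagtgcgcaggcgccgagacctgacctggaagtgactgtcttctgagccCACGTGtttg
Nle1, chr11:82908355-82908384, minus strand: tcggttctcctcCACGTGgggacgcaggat
Pno1, chr11:17211540-17211564, minus strand: tgtacaaccacgCACGTGttcctct
Wdr43, chr17:71616220-71616249, plus strand: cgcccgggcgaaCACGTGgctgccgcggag
The 10 genes with an E-box had a median log2 change of -0.46 in NK cells and the 34 without one of -0.27, with overlapping ranges of -1.23 to -0.16 and -1.24 to 0.25.

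The 4 genes of RNA polymerase I transcription were not called in the fit of all 5 NK libraries without a block. Polr1a, the largest catalytic subunit, was at 5.85, 7.45 and 5.79 RPKM in the vehicle libraries and 4.98 and 4.84 RPKM in the tofacitinib libraries (log2 change -0.36, SE 0.13, adjusted p = 0.146). Its treated libraries were the lowest, but the difference did not pass the test. Polr1b, the second largest subunit, and Rrn3, the factor that recruits the polymerase to the ribosomal DNA promoter, had log2 changes of -0.17 and -0.16. Polr1c, a subunit that RNA polymerase I shares with RNA polymerase III, went the other way, with 17.2, 19.96 and 17.03 RPKM in the vehicle libraries and 21.6 and 21.2 RPKM in the tofacitinib libraries (log2 change 0.25, SE 0.092, adjusted p = 0.153). It was the only one of the 48 genes for which both treated libraries were above all vehicle libraries, and it was called higher only when vehicle 2 was left out.

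Among the box C/D snoRNP proteins, Nop58 fell, and Fbl was called only with a block. Nop58, a core protein of the particle, was at 22.3, 27.1 and 22.4 RPKM in the vehicle libraries and 16.1 and 15.2 RPKM in the tofacitinib libraries, without overlap between groups (log2 change -0.60, SE 0.10, adjusted p = 0.0168). Its partner Nop56 was at 33.6, 33.7 and 33.4 RPKM in the vehicle libraries and 32.8 and 34.9 RPKM in the tofacitinib libraries, and the treated libraries lay on either side of the vehicle values (log2 change 0.012, SE 0.074, adjusted p = 0.94). Fbl, fibrillarin, the methyltransferase of the particle, was at 36.6, 55.5 and 42.9 RPKM in the vehicle libraries and 31.7 and 33.4 RPKM in the tofacitinib libraries (log2 change -0.44, SE 0.15, adjusted p = 0.124). Both treated values of Fbl were lower than every vehicle value, but the vehicle libraries themselves differed widely. With the letter as a block Fbl was called lower (log2 change -0.58, SE 0.13, adjusted p = 6.7e-04).

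Of the 4 box H/ACA snoRNP proteins, Nhp2 and Dkc1 fell. Nhp2, an RNA-binding core protein, was at 21.4, 21.5 and 19.2 RPKM in the vehicle libraries and 11.5 and 12.1 RPKM in the tofacitinib libraries (log2 change -0.81, SE 0.086, adjusted p = 0.00263), so that the treated libraries held 56.9% of the vehicle mean. Dkc1, dyskerin, the pseudouridine synthase, was at 15.7, 16.6 and 16.1 RPKM in the vehicle libraries and 11.6 and 11.5 RPKM in the tofacitinib libraries (log2 change -0.48, SE 0.077, adjusted p = 0.0133). Both sets of values were tight and far apart. Nop10, the smallest core protein, was the most abundant of the 4 at 40.8, 49.1 and 45.3 RPKM in the vehicle libraries and 43.7 and 40.4 RPKM in the tofacitinib libraries (log2 change -0.10, SE 0.095, adjusted p = 0.570), and Gar1 had a log2 change of -0.29 with vehicle libraries from 8.34 to 14.6 RPKM. For Nop10 and Gar1 the groups overlapped, but with the letter as a block Gar1 was called lower (log2 change -0.52, SE 0.13, adjusted p = 0.00347). Vehicle 1 stands alone in its letter and does not enter that estimate. Its Gar1 value, 8.34 RPKM, lay below both treated libraries at 9.48 and 9.13 RPKM, and without the block adjusted p was 0.401.

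The nucleolar phosphoproteins were the most abundant group and none was called in the fit of all 5 NK libraries without a block. Npm1, nucleophosmin, a histone and ribosome chaperone, had the highest level of all 48 genes, with 144, 154 and 139 RPKM in the vehicle libraries and 135 and 133 RPKM in the tofacitinib libraries (log2 change -0.12, SE 0.084, adjusted p = 0.406). Ncl, nucleolin, had a log2 change of -0.10 and Nolc1, a chaperone of snoRNPs, of -0.25, with adjusted p = 0.552 and 0.263. Npm1 has 4 near-identical pseudogene copies in the genome (at least 95% identity over at least 300 bases), so its level is uncertain. This holds also for Nop56 with 3 copies, Pes1, Ddx18 and Mrto4 with 2 each, and Fbl, Wdr12 and Ddx21 with 1 each.

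Small subunit assembly, the role with the most genes, held the largest number of falls. Of its 16 genes, 7 (43.8%) were called lower, with a median log2 change of -0.44. The share called lower was 33.3% over all 48 genes, 50% in box H/ACA and 66.7% in the regulators, against 3.02% of all tested genes. Tsr1, a GTPase-like factor of the late small subunit precursor, was at 7.80, 8.38 and 8.33 RPKM in the vehicle libraries and 3.38 and 3.45 RPKM in the tofacitinib libraries (log2 change -1.23, SE 0.10, adjusted p = 9.3e-04). It had the lowest p of the 48 genes, and its treated libraries were close to each other. Of the exon bases of Tsr1, 32.3% are shared with Srr on the opposite strand, and the sources used here do not state that counting used strand, so reads of the shared bases cannot be told apart. Srr itself was at 1.68, 2.002 and 1.72 RPKM with vehicle and 1.13 and 1.42 RPKM with tofacitinib, below Tsr1 in each library. Bysl, bystin, which acts in small subunit assembly and export, was at 5.76, 8.36 and 6.84 RPKM in the vehicle libraries and 2.92 and 2.82 RPKM in the tofacitinib libraries (log2 change -1.24, SE 0.15, adjusted p = 0.00495). Bysl shares 9.4% of its exon bases with the opposite-strand gene Ccnd3, the cell cycle regulator cyclin D3, which was far more abundant at 138 to 188 RPKM with vehicle and 108 RPKM in both treated libraries. How far reads of Ccnd3 entered the Bysl value was not tested. Rrp12, needed for export of the subunit precursors in yeast, was at 2.86, 3.80 and 2.72 RPKM in the vehicle libraries and 1.23 and 1.39 RPKM in the tofacitinib libraries (log2 change -1.18, SE 0.19, adjusted p = 0.0142). It passed the filter on low values only through the vehicle group.

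The other small subunit factors called in NK cells changed less. Rrp9, a protein specific to the U3 snoRNP that guides early cuts, was at 16.6, 16.9 and 15.3 RPKM in the vehicle libraries and 10.4 and 10.8 RPKM in the tofacitinib libraries (log2 change -0.61, SE 0.084, adjusted p = 0.00697). Wdr43, which belongs to the part of the small subunit processome linked to transcription, was at 16.01, 16.4 and 16.3 RPKM in the vehicle libraries and 11.2 and 10.6 RPKM in the tofacitinib libraries (log2 change -0.57, SE 0.078, adjusted p = 0.00697). The vehicle libraries of Wdr43 were close to each other and both treated libraries far below them. Heatr1, of the same part of the processome, was at 8.74, 10.4 and 9.29 RPKM in the vehicle libraries and 6.56 and 6.77 RPKM in the tofacitinib libraries (log2 change -0.50, SE 0.10, adjusted p = 0.0309). Pno1, the RNA-binding partner of Nob1, was at 7.50, 7.85 and 7.23 RPKM in the vehicle libraries and 4.99 and 5.89 RPKM in the tofacitinib libraries (log2 change -0.46, SE 0.11, adjusted p = 0.0463). In each of these 4 genes the groups were apart, and Pno1 lay closest to the threshold. Nob1, the endonuclease that makes the final cut of the small subunit RNA, was not called, with 15.4, 13.98 and 11.8 RPKM in the vehicle libraries and 12.9 and 12.1 RPKM in the tofacitinib libraries (log2 change -0.12, SE 0.11, adjusted p = 0.546). Ddx10, a helicase and the most abundant small subunit factor in NK vehicle libraries, was at 15.98, 17.98 and 16.7 RPKM in the vehicle libraries and 14.2 and 14.2 RPKM in the tofacitinib libraries (log2 change -0.25, SE 0.083, adjusted p = 0.122). Its treated libraries were the lowest by a small margin. Of the remaining 7 genes, Wdr75 lay just outside the threshold (log2 change -0.42, adjusted p = 0.0565), and Nop14, Noc4l, Utp14a, Utp15, Utp18 and Utp20 had log2 changes of -0.46 to 0.047. Utp14a shares 11.5% of its exon bases with the opposite-strand gene 9530027J09Rik.

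In large subunit assembly, 4 of 15 genes (26.7%) fell, against 33.3% of all 48 genes and 3.02% of all tested genes, and the median log2 change was -0.30. Rrp1b, a nucleolar protein of the early large subunit, was at 3.19, 3.32 and 3.52 RPKM in the vehicle libraries and 1.57 and 1.85 RPKM in the tofacitinib libraries (log2 change -0.93, SE 0.15, adjusted p = 0.0142). It passed the filter on low values only through the vehicle group. Nle1, a factor released from the large subunit precursor by the Mdn1 ATPase, was at 4.74, 5.03 and 4.88 RPKM in the vehicle libraries and 2.45 and 3.40 RPKM in the tofacitinib libraries (log2 change -0.74, SE 0.15, adjusted p = 0.0318). Mrto4, which holds the place of a stalk protein on the precursor, was at 11.03, 14.1 and 11.9 RPKM in the vehicle libraries and 7.89 and 8.58 RPKM in the tofacitinib libraries (log2 change -0.57, SE 0.12, adjusted p = 0.0297). Gnl3, nucleostemin, a nucleolar GTPase of stem and dividing cells, was at 10.6, 10.3 and 10.6 RPKM in the vehicle libraries and 7.37 and 8.12 RPKM in the tofacitinib libraries (log2 change -0.44, SE 0.088, adjusted p = 0.0292). None of these 4 genes overlapped between groups, and the treated libraries of Nle1 differed more from each other than its vehicle libraries did.

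The other 11 large subunit factors were not called in the fit of all 5 NK libraries without a block. With the letter as a block, Nop2 was called lower (log2 change -0.59, SE 0.14, adjusted p = 0.00156), and Noc2l was called when vehicle 2 was left out. Ddx18, a helicase, was the most abundant of the group at 25.6, 24.1 and 21.9 RPKM in the vehicle libraries and 21.01 and 21.5 RPKM in the tofacitinib libraries (log2 change -0.16, SE 0.087, adjusted p = 0.295). Of the PeBoW complex, Pes1, Bop1 and Wdr12 had log2 changes of -0.31, -0.24 and -0.29, with adjusted p = 0.0968, 0.184 and 0.388. All 3 signs were negative, none past the threshold in that fit. Nop2, an RNA methyltransferase, Nop16 and Noc2l had log2 changes of -0.46, -0.45 and -0.30 with adjusted p = 0.0924, 0.111 and 0.0617. Nip7 and Ebna1bp2 had the smallest differences, with log2 changes of -0.012 and -0.035. Noc3l and Ftsj3 had log2 changes of -0.21 and -0.18.

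Of the 3 nucleolar regulators, Mybbp1a and Ddx21 fell. Mybbp1a, a nucleolar protein that binds Myb and takes part in RNA polymerase I regulation, was at 20.5, 26.00 and 20.8 RPKM in the vehicle libraries and 12.8 and 13.3 RPKM in the tofacitinib libraries (log2 change -0.77, SE 0.11, adjusted p = 0.00927). Ddx21, a helicase that links RNA polymerase I transcription with processing, was the most abundant factor called lower in NK cells, with 34.6, 38.5 and 34.1 RPKM in the vehicle libraries and 25.8 and 24.9 RPKM in the tofacitinib libraries (log2 change -0.49, SE 0.083, adjusted p = 0.0163). Lyar, a zinc finger protein of the nucleolus, had treated libraries inside the vehicle range (log2 change -0.11, adjusted p = 0.685).

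**Figure D2:**
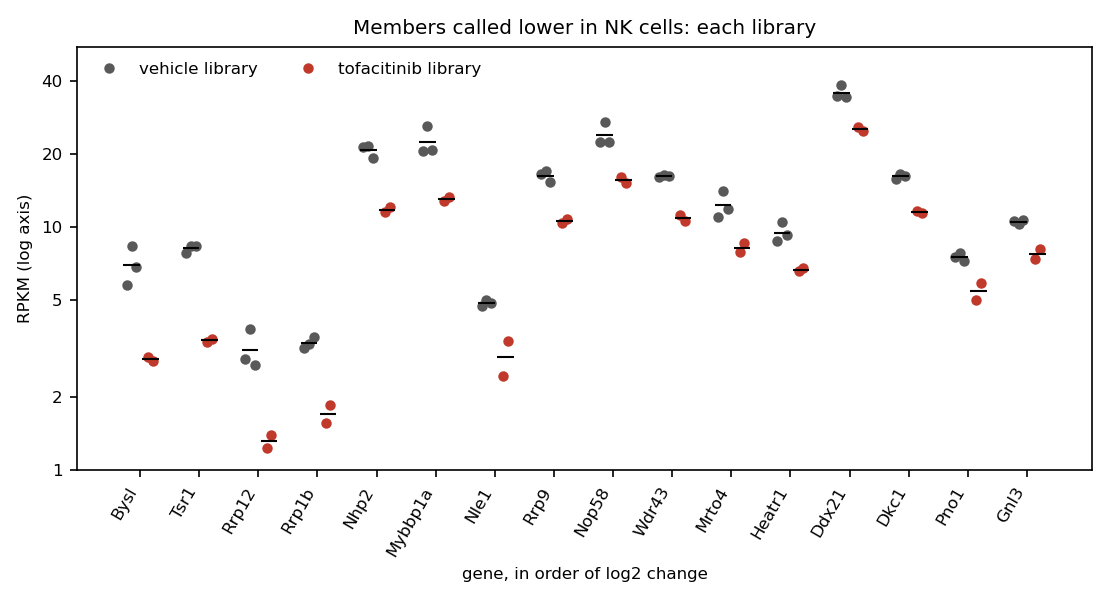
RPKM on a log axis in each NK library for the 16 genes called lower, in order of log2 change, with grey points for the 3 vehicle libraries, red points for the 2 tofacitinib libraries and black lines for group means. In none of the 16 genes does a red point reach the lowest grey point, and levels span from 1.23 RPKM for Rrp12 to 38.5 RPKM for Ddx21.

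In ILC1, 0 of the 48 genes were called in either direction when all 5 libraries were compared (limma, 9366 genes; 0.278% of all tested genes lower and 0.192% higher), although 47 of the 48 log2 changes were negative. At an unadjusted p under 0.05, 5 were lower and 0 higher, and 1.41% of all tested genes were lower. The median log2 change was -0.62, against 0.010 over all tested genes, with a range of -1.56 for Rrp12 to 0.22 for Polr1c. The median SE of a log2 change was 0.49, against 0.10 in NK cells. All 48 genes passed the filter, Rrp12 through the vehicle group alone. Without vehicle 2 the 5 genes Rrp12, Bysl, Tsr1, Nle1 and Mrto4 were called lower, where 0.972% of all tested genes were lower. Without vehicle 1 or vehicle 3, 0 of the 48 were called, where 0.0107% and 0.0641% of all tested genes were lower. The median log2 change of the 48 genes was -0.89 without vehicle 2, where all tested genes had -0.24, and -0.36 without tofacitinib 1, where all tested genes had 0.28.

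Each library of the 5 genes is given here because they had the lowest p in ILC1. Rrp12 was at 5.08, 2.95 and 4.89 RPKM with vehicle and 1.18 and 1.55 RPKM with tofacitinib (log2 change -1.56, SE 0.46, adjusted p = 0.0998). Tsr1 was at 13.4, 9.65 and 20.2 RPKM with vehicle and 3.72 and 5.81 RPKM with tofacitinib (log2 change -1.55, SE 0.48, adjusted p = 0.171). Nle1 was at 10.9, 6.47 and 8.74 RPKM with vehicle and 3.28 and 4.01 RPKM with tofacitinib (log2 change -1.21, SE 0.47, adjusted p = 0.783). In all 3 genes, as in Bysl and Mrto4, both treated libraries lay below the lowest vehicle library, which was vehicle 2. Bysl was at 6.93, 5.23 and 9.53 RPKM with vehicle and 2.68 and 3.37 RPKM with tofacitinib (log2 change -1.20, SE 0.47, adjusted p = 0.783). Its opposite-strand neighbour Ccnd3 was at 207, 83.1 and 192 RPKM with vehicle and 72.2 and 78.7 RPKM with tofacitinib. Mrto4 was at 15.97, 11.2 and 17.6 RPKM with vehicle and 5.74 and 7.21 RPKM with tofacitinib (log2 change -1.18, SE 0.49, adjusted p = 1.00). Of the 48 genes, 14 had both treated libraries below all vehicle libraries, against 3.43% of all tested genes, and 0 had both above, against 2.07%.

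Relative to vehicle of the same run, 40 of the 48 genes were lower in both runs, against 19.4% of all tested genes, and only Polr1c was higher in both, at 0.24 and 0.22 on the log2 scale. The median difference over the 48 genes was -0.38 between tofacitinib 1 and vehicle 2, where all tested genes had a median of 0.22, and -0.74 between tofacitinib 2 and vehicle 3, where all tested genes had -0.034. In the run of vehicle 3 and tofacitinib 2 the neutrophil markers summed to 3.11 RPKM with vehicle and 3.70 RPKM with tofacitinib and the erythroid markers to 1.48 and 15.7 RPKM. Relative to all tested genes, the median difference was -0.60 in the run of tofacitinib 1 and -0.71 in this one, and the part of these markers was not tested. T cell markers summed to 259 and 223 RPKM in that pair and 130 and 142 RPKM in the other. Most of each sum was Cd3g, at 247 and 206 RPKM in that pair and 118 and 130 RPKM in the other. Each of the other T cell markers was at 6.55 RPKM or less.

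With the run as a block, limma called 17 of the 48 genes lower and 0 higher, against 2.34% and 1.99% of all tested genes. This fit rests on the 2 pairs that share a run and has 1 residual degree of freedom per gene. Its p-values use only the spread shared across genes, and a gene's own spread has no weight in them. Very small p-values here therefore do not measure how well the 2 pairs of a gene agree. Tsr1 differed by -1.35 and -1.78 on the log2 scale in the 2 runs (log2 change -1.57, SE 0.22, adjusted p = 4.3e-10), the largest ILC1 fall among the 48 genes. Rrp12 differed by -1.26 and -1.59 (log2 change -1.43, SE 0.26, adjusted p = 2.9e-06) and Bysl by -0.94 and -1.47 (log2 change -1.21, SE 0.23, adjusted p = 1.5e-05). By the size of the log2 change these 3 genes came first in this fit, whereas over all 5 ILC1 libraries Nle1 came before Bysl. The other small subunit factors called were Rrp9 (log2 change -0.81) and Pno1 (-0.74). In large subunit assembly the calls were Mrto4 (-1.12), Nle1 (-1.03), Nop2 (-0.74), Gnl3 (-0.73) and Noc2l (-0.72). Noc2l shares 20.9% of its exon bases with the opposite-strand gene Samd11, which was at 0.484 RPKM at most.

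The snoRNP proteins of both kinds were among the ILC1 calls with the run as a block. Fbl was at 60.9, 40.3 and 78.1 RPKM with vehicle and 25.7 and 39.9 RPKM with tofacitinib (within runs -0.65 and -0.97; block adjusted p = 0.0118). Nop58 was at 26.1, 21.7 and 40.1 RPKM with vehicle and 11.97 and 21.8 RPKM with tofacitinib (block adjusted p = 0.00611), and Nhp2 at 26.3, 17.8 and 36.2 RPKM with vehicle and 10.1 and 17.6 RPKM with tofacitinib (block adjusted p = 0.00260). In each of these genes tofacitinib 1 was the lowest library. Dkc1 had within-run differences of -0.62 and -0.80 and Nop56 of -0.52 and -0.54, of which only Dkc1 was called (block adjusted p = 0.0399 and 0.225). Nop10 differed in sign between the runs, at 0.28 and -0.42.

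Polr1b was the RNA polymerase I subunit called in ILC1 with the run as a block. It was at 5.55, 5.04 and 7.68 RPKM with vehicle and 3.43 and 3.11 RPKM with tofacitinib (within runs -0.54 and -1.28; block adjusted p = 0.00390), and both treated libraries were below all vehicle libraries. Polr1a had within-run differences of 0.090 and -0.85, opposite in sign. The regulators Mybbp1a and Ddx21 were called, with 27.9, 14.7 and 33.2 RPKM with vehicle and 10.6 and 13.9 RPKM with tofacitinib for Mybbp1a (block adjusted p = 0.00635) and 38.9, 25.1 and 49.5 RPKM with vehicle and 15.5 and 25.6 RPKM with tofacitinib for Ddx21 (block adjusted p = 0.0114). Npm1 was at 150, 115 and 204 RPKM with vehicle and 95.7 and 190 RPKM with tofacitinib (within runs -0.27 and -0.11; block adjusted p = 0.787), and Ncl had within-run differences of -0.19 and -0.15. Neither was called in ILC1 with the run block.

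**Figure D3:**
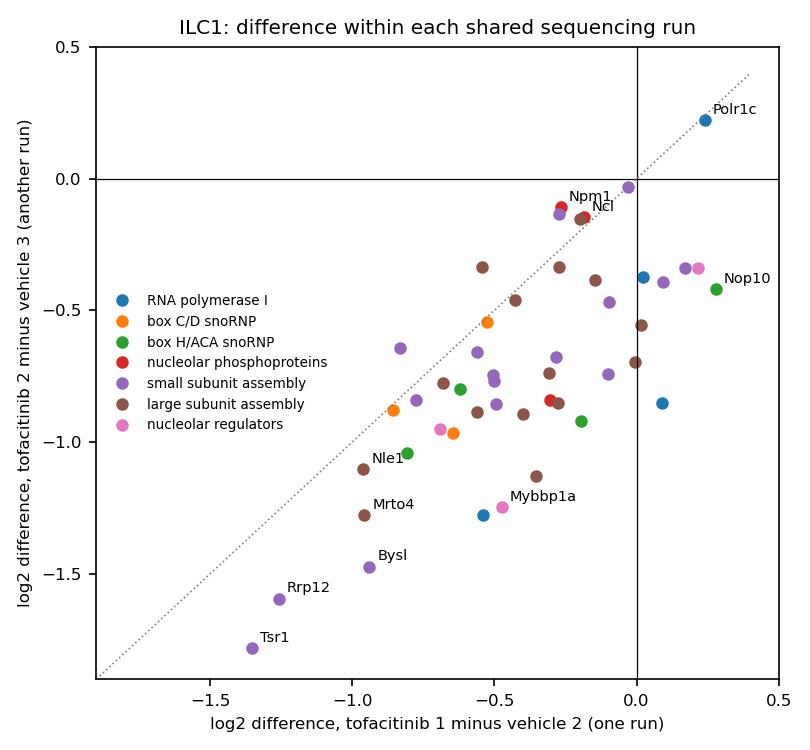
Each point is 1 of the 48 genes, coloured by role, with the log2 difference of ILC1 tofacitinib 1 from vehicle 2 on the x axis and of tofacitinib 2 from vehicle 3 on the y axis. Most points lie in the lower left, below the dotted line of equal differences, with Tsr1 farthest out and Polr1c alone in the upper right.

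Scaling each ILC1 library to the same median, in place of the run block, gave 21 calls lower and 0 higher (2.18% of all tested genes lower) and a median log2 change of -0.63. Of the 17 genes called with the run block, 15 were among these 21 (88.2% of the first list and 71.4% of the second), and Nop58 and Polr1b were not. The ratio of the median of the 48 genes to the median of all tested genes was 1.22, 1.22 and 1.28 in the ILC1 vehicle libraries and 0.829 and 0.889 in the tofacitinib libraries. In NK cells it was 0.952, 1.09 and 0.967 with vehicle and 0.815 and 0.875 with tofacitinib. In both cell types, each treated library had a lower ratio than every vehicle library.

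Between cell types, the log2 changes of the 48 genes were correlated, and no difference between the responses was called. NK cells and ILC1 share no libraries, so the changes are separate measurements. Across the 48 genes the ILC1 change, as the mean of the 2 within-run differences, correlated with the NK change with Pearson's r = 0.84 and Spearman's rho = 0.81, and across all 8981 genes tested in both cell types r was 0.59. These are descriptions across genes, which are not independent replicates. Of the 16 genes called in NK cells, all 16 were lower in both ILC1 runs, as were 40 of all 48 genes and 19.4% of all tested genes. Both treated ILC1 libraries lay below all vehicle libraries for 10 of the 16, for 14 of the 48 and for 3.43% of all tested genes. The 16 NK calls and the 17 ILC1 calls with the run block shared 13 genes (81.2% of the first list and 76.5% of the second). With a block in both cell types, the 19 NK calls and the 17 ILC1 calls shared 15 genes (78.9% and 88.2%). How far the calls of the 2 cell types overlap over all tested genes was not computed. Of these blocked calls, Gar1, Heatr1, Rrp1b and Wdr43 were made in NK cells and not in ILC1, and Noc2l and Polr1b in ILC1 and not in NK cells, which by itself does not show that the responses differ.

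The interaction test of the joint fit (ILC1 response minus NK response) called 0 of the 48 genes at an adjusted p under 0.05 (limma, 8981 genes; 0.0445% of all tested genes had a lower and 0.1% a higher ILC1 response), and 0 were below an unadjusted p of 0.05. With the run or letter as a block it also called 0 of them (0.189% and 0.334% of all tested genes). At an unadjusted p under 0.05 the blocked fit had 3, Polr1b, Nop56 and Utp18, all with a lower ILC1 response. The interaction was negative for 44 of the 48 genes, and for 36 with the block, with an unblocked median of -0.24 and a median SE of 0.46. Without the block, Polr1b had the lowest value, -0.69 (SE 0.45, unadjusted p = 0.129), followed by Mrto4 at -0.61 (SE 0.46, unadjusted p = 0.189). Rrp1b had the highest, 0.31 (SE 0.45, unadjusted p = 0.494). With SEs of this size, smaller differences between the responses were not detectable, so the test does not show that the responses were alike.

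**Figure D4:**
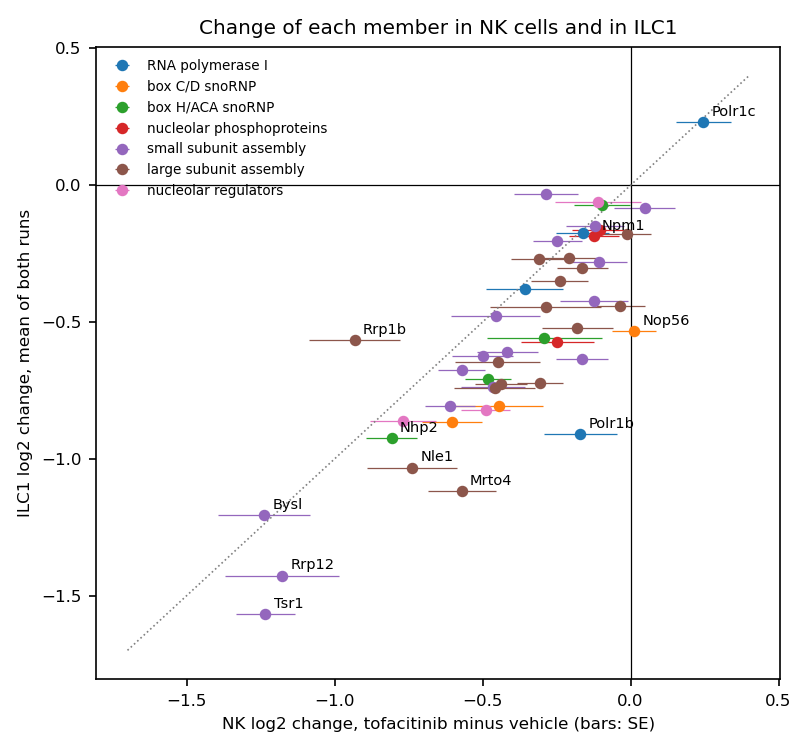
Each point is 1 of the 48 genes, coloured by role, with the NK log2 change on the x axis (bars show its SE) and the mean of the 2 within-run ILC1 differences on the y axis. Points run from Tsr1, Rrp12 and Bysl at the lower left to Polr1c at the upper right, and most lie under the dotted line of equal change, Rrp1b above it.

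By role, the median log2 change in NK cells was -0.17 for RNA polymerase I, -0.44 for box C/D, -0.39 for box H/ACA, -0.12 for the phosphoproteins, -0.44 for small subunit assembly, -0.30 for large subunit assembly and -0.49 for the regulators. In ILC1, over all libraries, these medians were -0.37, -0.81, -0.66, -0.18, -0.67, -0.55 and -0.87. The phosphoproteins had the smallest median change in both cell types, and calls in NK cells were found in 5 of the 7 roles. Groups of 3 or 4 genes give only a rough median.

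**Figure D5:**
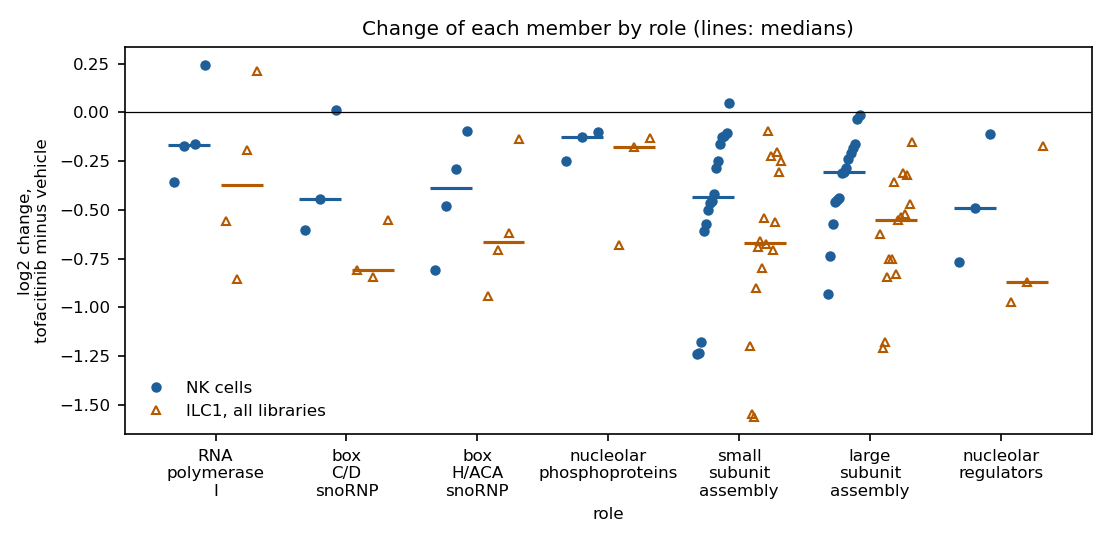
The log2 change of each gene by role, with blue circles for NK cells, open orange triangles for ILC1 over all 5 libraries and lines for medians. Small subunit assembly holds the 3 lowest NK values (Bysl, Tsr1 and Rrp12), and the phosphoproteins sit close to 0 except Nolc1 in ILC1 at -0.68.

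The other genes of ribosome production were counted in 3 further lists. Of 114 further biogenesis factors tested in NK cells, 10 (8.77%) were called lower and 0 higher, against 3.02% and 1.79% of all tested genes. At an unadjusted p under 0.05, 25 were lower and 5 higher, where 13.1% of all tested genes were lower. The median log2 change of the 114 factors was -0.095. The 3 with the smallest p were Rcl1, of small subunit processing, from 8.59 ± 0.546 to 4.42 ± 0.502 RPKM (SD, n = 3 and 2; log2 change -0.95, SE 0.11, adjusted p = 0.00377), Ltv1, of small subunit maturation, from 12.05 ± 0.720 to 8.27 ± 0.388 RPKM (SD; log2 change -0.54, SE 0.090, adjusted p = 0.0163), and Rrs1, of large subunit assembly, from 12.1 ± 1.41 to 7.89 ± 0.225 RPKM (SD; log2 change -0.61, SE 0.11, adjusted p = 0.0191). In ILC1, 0 of 114 were called over all libraries, where 0.278% of all tested genes were lower. At an unadjusted p under 0.05, 3 were lower and 0 higher, where 1.41% of all tested genes were lower. With the run block 9 (7.89%) were lower and 0 higher, against 2.34% and 1.99% of all tested genes. The median of the 114 in ILC1 over all libraries was -0.17. The smallest p there belonged to Cd3eap, a subunit of RNA polymerase I, Rcl1 and Rrp15, with log2 changes of -1.03, -1.03 and -1.001 and adjusted p = 1.00 over all libraries, and 0.0052, 0.0025 and 0.0015 with the run block.

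Ribosomal proteins are the structural part of the ribosome that these factors assemble. Of 77 cytosolic ribosomal proteins, 0 were called in NK cells, where 3.02% of all tested genes were lower. At an unadjusted p under 0.05, 9 of the 77 were lower and 0 higher, where 13.1% of all tested genes were lower. All 77 had a negative log2 change, with a median of -0.21 and a range of -0.33 to -0.038. In ILC1 the median was -0.12 over all libraries and 0.016 with the run block, with 0 (0 lower and 0 higher at an unadjusted p under 0.05) and 1 called lower. The latter was 1.30%, against 2.34% of all tested genes. Of 77 mitochondrial ribosomal proteins, 4 (5.19%) were lower and 0 higher in NK cells, against 3.02% and 1.79% of all tested genes. At an unadjusted p under 0.05, 20 were lower and 2 higher, where 13.1% of all tested genes were lower, and the median was -0.12. In ILC1, 0 were called in either fit (at an unadjusted p under 0.05, 0 lower and 0 higher over all libraries and 4 and 0 with the run block). The median there was -0.12 over all libraries. The median of the 48 assembly factors with the run block, -0.56, was lower than those of all 3 lists, and the difference between lists was not tested. The 48 genes and these lists were chosen with earlier results of these data known, so the comparison is a description only.

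With vehicle, the levels of the 48 genes spanned a wide range that was much the same in both cell types. In NK cells they ran from 2.70 RPKM for Wdr12 to 146 RPKM for Npm1, with a median of 12.9 RPKM, and in ILC1 from 2.98 RPKM for Wdr12 to 156 RPKM for Npm1, with a median of 13.6 RPKM. After Npm1 came Ncl, Nop10 and Fbl in NK cells at 52.8 ± 5.36, 45.1 ± 4.18 and 45.0 ± 9.62 RPKM (SD, n = 3), with overlapping spreads between neighbours, then Ddx21 and Nop56 at 35.7 ± 2.40 and 33.6 ± 0.181 RPKM. Within NK vehicle libraries Ncl was above Nop10 each time, while the order of Nop10 and Fbl varied. In ILC1 the order after Npm1 was Fbl, Ncl, Nop10, Ddx21 and Nop56 at 59.7 ± 18.9, 54.5 ± 16.9, 38.5 ± 17.5, 37.8 ± 12.2 and 35.0 ± 10.1 RPKM, with overlapping spreads between neighbours. These spreads include the low values of vehicle 2. Within each ILC1 vehicle library Fbl was above Ncl, Ncl above Nop10 and Ddx21 above Nop56, while the order of Nop10 and Ddx21 varied. The 3 genes that fell most were thus not abundant ones: with vehicle Bysl, Tsr1 and Rrp12 were at 6.99, 8.17 and 3.13 RPKM in NK cells.

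The vehicle mean in ILC1 was above that in NK cells for 34 of the 48 genes, with ratios from 0.815 for Ddx10 to 1.78 for Nle1 and a median of 1.07. Tsr1 had a ratio of 1.77 and Rrp9 of 1.45. The 2 tables were normalized separately, so these ratios carry no test. After tofacitinib, Nle1 was at 2.92 RPKM in NK cells and 3.65 RPKM in ILC1, and Tsr1 at 3.41 and 4.77 RPKM, so the ILC1 excess of both genes was smaller than with vehicle. These 2 genes had the highest vehicle ratios of the 48. The interaction was not called for either (joint limma fit, unadjusted p = 0.298 for Nle1 and 0.491 for Tsr1).

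The genes also differ in what else they carry. Introns and exons of 7 of the 48 genes contain 21 annotated snoRNA genes: 5 in Nop56, 4 in Nop58, 3 each in Ncl, Wdr43 and Gnl3, 2 in Tsr1 and 1 in Dkc1. Of these 7 hosts, Nop58, Wdr43, Gnl3, Tsr1 and Dkc1 were called lower in NK cells and Nop56 and Ncl were not. Of all 48 genes 16 were called lower, and of all tested genes 3.02%. A link between carrying snoRNA genes and falling was not tested. Genes whose names mark them as snoRNAs were left out of the tests. The 48 genes lie on 18 chromosomes, with 9 on chromosome 11. Of these, Tsr1 (GRCm38.p6 chr11:74898080-74909340, plus strand), Mybbp1a, Nle1, Nhp2 and Pno1 were called lower in NK cells. Npm1, Utp18, Pes1 and Ftsj3 were not called in that fit of all 5 NK libraries without a block. Bysl lies at chr17:47599331-47611492 on the minus strand and Rrp12 at chr19:41859483-41896153 on the minus strand.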

How the data were processed

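RNA of 10 libraries, each from pooled sorted cells, was sequenced by the authors as 50-bp single-end reads, aligned to mm10 with TopHat2 2.1.1 and summarised as RPKM in Partek. The deposited RPKM values were used as log2(RPKM + 0.1). The deposited counts of alignments per library (29199973 to 79258362) describe depth. RPKM steps gave no whole reads, so no count test was run and errors are those between libraries. The authors' columns of group means, ratios and p-values were not used, and their gene annotation is not given in the sources used here.

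Genes with a group mean of log2(RPKM + 0.1) above 1 in at least 1 group were tested, without the 1296 names starting with Mir or Snor, in limma 3.58.1 in R 4.3.3 (moderated with a mean-variance trend, both directions, Benjamini-Hochberg over all genes tested, threshold 0.05), checked on simulated data. Pools counted as replicates, so p-values refer only to spread between these pools. In the ILC1 fit of all 5 libraries, the fits with run or letter as a block and the interaction fits, moderation used only the spread shared across genes. A gene's own spread had no weight there. The 48 genes, their roles and the other lists were chosen with earlier results of these data known. All 48 may be named, with full values for called genes and, per role, the most abundant and the most changed one in NK cells, and for up to 3 further factors per cell type. Exon overlap, snoRNA genes and pseudogene copies (BLAST 2.17.0) came from the GRCm38.p6 annotation and genome. Alternatives covered offset, filter, scaling, variance model, joint fit, blocks and each library left out. In ILC1 deviations from the group means correlated within shared runs (r = 0.63 and 0.78). By replicate number r was 0.16 and -0.63. The deviations of the 2 treated libraries mirror each other, so the -0.63 is the 0.63 with its sign changed and not a separate result.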

Additional observations from a re-analysis of the deposited data

How the results depend on the processing

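The NK count of 16 genes lower became 0 with no filter on low values (24 lower at an unadjusted p under 0.05), where 0.00486% of all tested genes were called lower. It became 0 when the variance of each gene stood alone (20 unadjusted), where 0% of all tested genes were. In the joint fit of all 10 libraries it was 2, with 0.2% of all tested genes. It was 14 to 17 with another offset, a stricter filter (44 of the 48 genes tested), median or quantile scaling and no variance trend, and 3 to 17 with 1 library left out. Higher calls were 0 throughout, except 1 without vehicle 2, so the range was 0 to 1. The replicate block, by the number in the labels, gave 25, where 12.1% of all tested genes were lower, and the block by the replicate letter gave 19 (3.85%). Neither number nor letter paired the NK libraries by their deviations from the group means (r = 0.017 and 0.14 for the number, -0.14 and -0.16 for the letter). The 0.14 and -0.14 are 1 value with opposite signs, because the deviations of the 2 treated libraries mirror each other.

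The ILC1 count of 0 lower became 21 with median scaling (2.18% of all tested genes), 19 with quantile scaling (2%) and 5 in the joint fit (0.701%). It became 17 with the run as a block (2.34%) and 30 with median scaling and the run block together (5.29%), a combination chosen after seeing the data. It stayed 0 with either offset, with no filter, a stricter filter, each gene's own variance and no trend, and with the replicate block by number, under which 0 were lower even unadjusted. With 1 library left out it was 0 to 5. The median log2 change was -0.89 to -0.36 in ILC1 and -0.34 to -0.24 in NK cells with 1 library left out, negative in each case. The interaction gave 0 calls among the 48 genes under the alternatives run. With 2 treated libraries per cell type, small differences are not detectable.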
